A study of Mus musculus with 6 samples.

Results

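The genes described here are 36 markers of macrophages and other myeloid cells, measured in bulk RNA sequencing of fibroblasts from the tendon enthesis of SKG mice. They were chosen by gene symbol from a fixed list of pan-myeloid, tissue-resident and monocyte genes. All 36 were among the 17419 genes of the table, and 35 of them passed the filter on low counts that left 13264 genes for testing; Cx3cr1 did not pass it. The enthesis is the attachment of a tendon or ligament to bone, and SKG mice carry a mutation of the T cell kinase gene Zap70 that makes them prone to autoimmune arthritis. Of the 6 samples, 3 are labelled diseased and have NTS in their titles, and 3 are labelled un-diseased and have UN in their titles. Neither abbreviation is explained, and no age, inducing agent or sorting step is given for either group. All samples are from SKG mice, so no group stands for a mouse without the Zap70 mutation. Whether each sample was a mouse of its own is not stated; p-values therefore speak to the spread among these 6 libraries, which may be technical.

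Macrophages are phagocytes of the tissue. They depend on the growth factor receptor Csf1r and on the transcription factor PU.1, encoded by Spi1. They take up particles through Fc receptors, lectins and scavenger receptors, and many of these receptors signal through small adaptors with an immunoreceptor tyrosine-based activation motif (ITAM), Fcer1g and Tyrobp (DAP12). Tissue-resident macrophages, which often line vessels, are known for Mrc1, Cd163, Lyve1, Folr2 and Pf4, whereas monocytes that have recently left the blood carry Ccr2.

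Most of these genes had a higher mean in diseased than in un-diseased samples, with a median log2 fold change of 1.25, while that of the 5 genes of tissue-resident macrophages was 0.13; this difference between role groups was not tested. With same-numbered samples compared with each other (the replicate block explained below), 31 of the 35 tested genes rose and 0 fell by edgeR. Of all tested genes, 10.5% rose and 13.3% fell in that fit. The 4 that did not pass, Cd163, Lyve1, Folr2 and Pf4, are all on the tissue-resident list. Clec7a, Fcgr1, Ms4a7, Fcer1g and Aif1 had the largest fold changes, at log2 2.03 to 2.29 without the block. Of these, Aif1 reached the filter's minimum count of 10 in diseased samples only. Without the block, 0 of the 35 passed an adjusted p of 0.05 by edgeR, where 1.61% of all tested genes were called higher and 2.13% lower.

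PU.1 and its relatives of the ETS family bind DNA with a purine-rich core, and stretches of promoter are shown for that reason. Most of these genes moved together, and a link between that and the letters of their promoters was not tested. The promoter table from RefSeq (GRCm38.p6) held 34 windows for 27 of the 36 genes. The motif GAGGAAG was searched on both strands in the 250 bases before each start and occurred in 8 of the 34 windows (23.5%), against 10.6% of all 32851 windows of the same length. The composite element of an ETS core and an interferon regulatory factor site (GGAA, 2 free bases, GAAA), searched the same way, occurred in 4 windows (11.8%) against 2.3% of all; a match to it can overlap one to GAGGAAG. By gene the shares were 7 of 27 (25.9%) against 12.0% of all 27025 genes, and 3 of 27 (11.1%) against 2.68%. Most genes that rose with the block had no match in their windows, among them Lyz2, Mpeg1, Ms4a7 and Fcer1g, while Pf4 and Folr2, which did not pass, had one each. The lines below give the 100 bases just before the start of 4 genes that rose with the block and of Mrc1 and Cd163 from the tissue-resident list, of which Mrc1 rose and Cd163 did not pass; the first 5 were chosen because they hold a match, 5′ to 3′ on the strand of the gene, with matches on either strand in capitals.
Fcgr1, chr3:96293970-96294069, minus strand: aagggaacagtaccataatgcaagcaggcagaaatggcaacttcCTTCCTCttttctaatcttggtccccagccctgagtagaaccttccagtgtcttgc
Fcgr2b, chr1:170976072-170976171, minus strand: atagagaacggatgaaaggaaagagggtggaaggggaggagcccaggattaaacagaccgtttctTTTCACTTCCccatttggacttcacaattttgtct
Laptm5, chr4:130913216-130913315, plus strand: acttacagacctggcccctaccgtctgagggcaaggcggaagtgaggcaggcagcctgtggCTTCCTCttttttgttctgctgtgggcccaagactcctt
Clec7a, chr6:129472780-129472879, minus strand: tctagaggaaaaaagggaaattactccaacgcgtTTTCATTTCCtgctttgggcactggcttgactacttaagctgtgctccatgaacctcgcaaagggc
Mrc1, chr2:14229314-14229413, plus strand: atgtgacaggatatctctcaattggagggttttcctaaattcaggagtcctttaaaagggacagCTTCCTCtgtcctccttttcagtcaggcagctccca
Cd163, chr6:124304551-124304650, plus strand: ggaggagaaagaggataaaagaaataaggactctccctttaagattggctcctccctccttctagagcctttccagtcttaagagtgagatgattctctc
GAGGAAG on the opposite strand begins 56 bases before the start of Fcgr1, 39 before that of Laptm5 and 36 before that of Mrc1, where it reads CTTCCTC. The composite motif lies 35 bases before Fcgr2b and 66 before Clec7a, and this window of Cd163 holds neither set of letters. A match is a description of the letters and not a binding site.

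Total estimated counts were 16720612 to 18290873 per sample. Levels are given as CPM, counts scaled to the library total after TMM adjustment. Where a gene had 0 counts, up to 3 remain possible, which is 0.147 to 0.188 CPM here by counting error alone. Together the 36 genes made up 0.0592%, 0.0847% and 0.0311% of the counts of the diseased libraries (replicates 1, 2 and 3) and 0.0200%, 0.0444% and 0.00780% of those of the un-diseased libraries. Fibroblast genes dominated all libraries: per kilobase of exon, the collagen gene Col1a1 had 3559 CPM and the receptor gene Pdgfra 107 CPM in diseased samples, while Lyz2 had 109, Cd14 29, Csf1r 4.62 and Adgre1 1.94. Lyz2 was the highest of the 36 on this scale and Cx3cr1, at 0.16, the lowest. In bulk RNA, fewer cells of a type and less RNA per cell cannot be told apart.

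One library stood at the bottom and another at the top for nearly every member. Un-diseased replicate 3 had the lowest CPM of the 6 for 33 of the 36 genes (15.9% of all tested genes), the exceptions being Cd14, Lyve1 and Ccr2. Diseased replicate 2 had the highest for 32 (16.4% of all), the exceptions being Aif1, Cd163, Lyve1 and Folr2. Un-diseased replicate 2 exceeded diseased replicate 3 for 28 of the 36 genes (48.2% of all), so the groups overlapped for most of them. The groups did not overlap, with diseased higher, for 8 of the 36 genes, namely Aif1, Lyz2, Mpeg1, Ms4a7, Fcgr1, Fcer1g, Clec7a and Msr1; this was so for 16.5% of all tested genes, and the share of members is near that background.

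**Figure D1:**
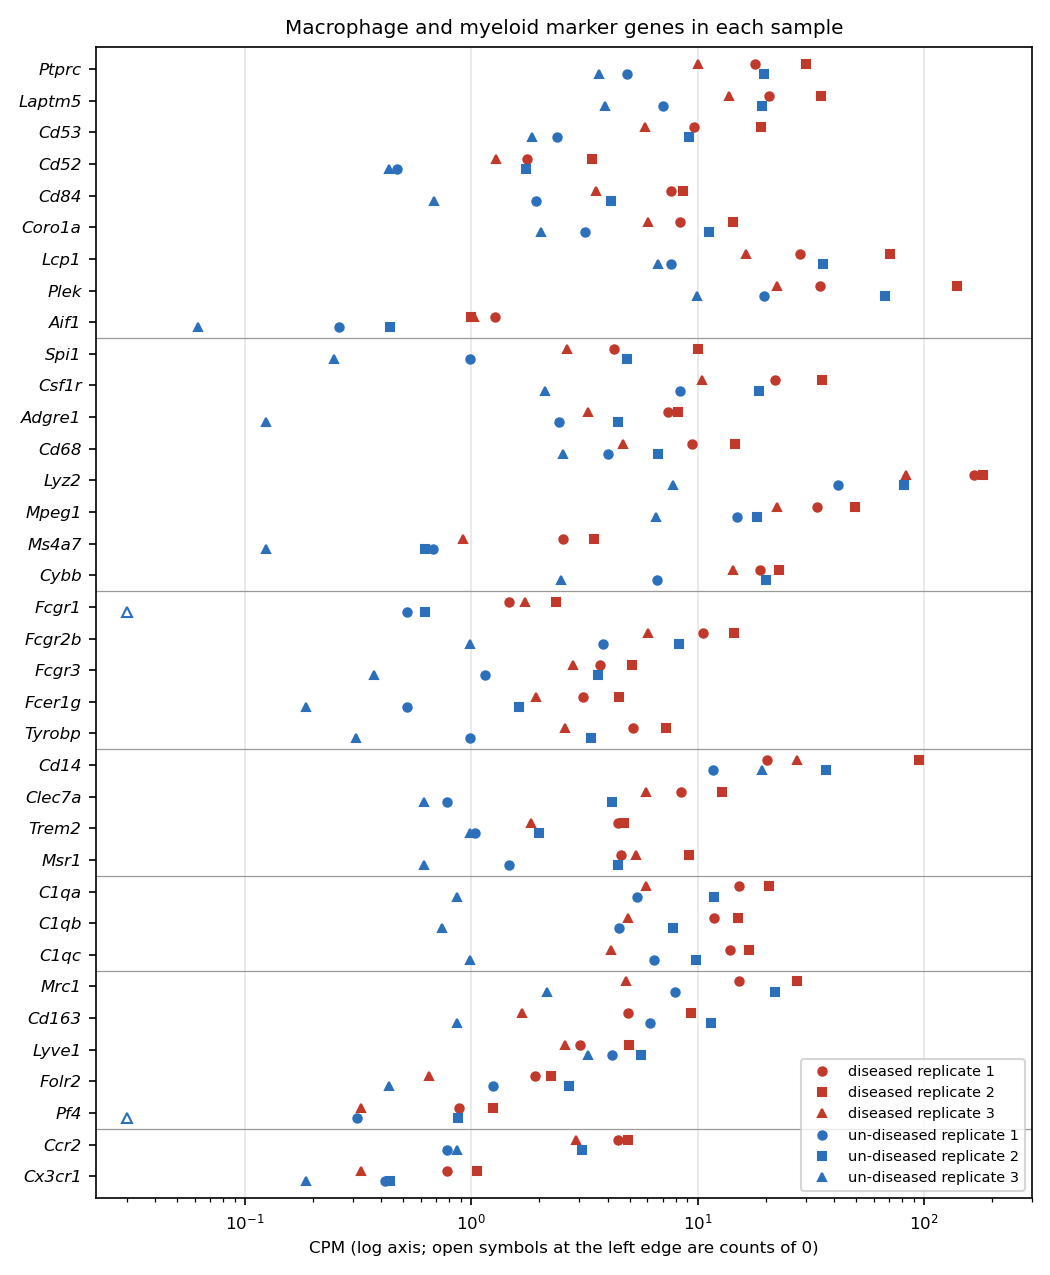
CPM of the 36 genes (log axis) in each of the 6 samples, colour for group and symbol for replicate number, with lines between role groups and open symbols for counts of 0. Un-diseased replicate 3 (blue triangles) is the lowest sample for 33 genes, and un-diseased replicate 2 (blue squares) lies above diseased replicate 3 (red triangles) for 28.

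The labels number the samples but do not state a pairing. Same-numbered samples of the groups deviated together from their group means, so the numbers were taken to pair them. The same data thus served for this choice and for the tests with the block. Within pairs, 32 of the 35 tested genes were higher in the diseased sample in all 3 pairs, against 30.7% of all tested genes. The median difference of log2 CPM over the 35 genes was 1.54 in pair 1, 0.95 in pair 2 and 1.95 in pair 3, beside 0.00, 0.02 and 0.02 over all genes tested. Pair 3, which holds the lowest un-diseased library, had the largest difference for 23 of the 35, and pair 2 the smallest for 26. The difference was thus present in every pair and differed between pairs in size.

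By edgeR's quasi-likelihood test without the block, 33 of 35 genes had a positive log2 fold change (51.8% of all genes), with a median of 1.25 against 0.02 over all genes. None passed an adjusted p of 0.05, where 1.61% of all genes were called higher and 2.13% lower. An unadjusted p under 0.05 with a higher level in diseased was reached by 13 of them and by 13.4% of all genes. DESeq2 without the block called 7 higher (4.79% of all genes), namely Aif1, Mpeg1, Ms4a7, Fcgr1, Fcer1g, Clec7a and Trem2, and limma-voom called 0 (1.62% of all genes). In the authors' deposited table the same 7 genes had a q-value below 0.05 (3.3% of its genes were higher at that value), from 0.00777 for Clec7a to 0.0429 for Trem2.

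With the replicate number as a block, edgeR called 31 of 35 higher and 0 lower, where 10.5% of all tested genes were called higher and 13.3% lower. The median log2 fold change was 1.44. DESeq2 with the block called 27 higher (6.08% of all genes) and gave no adjusted p for Aif1 and Pf4; Cd52, Adgre1 and Cybb passed with edgeR and the block but not with DESeq2 and the block. Leaving out pair 1 left 22 genes higher (7.62% of all), leaving out pair 2 left 31 (6.06%), and leaving out pair 3, which holds the lowest library, left 22 (3.18%). With upper-quartile factors and the block 31 were higher (15.6% of all).

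Without the block, edgeR called 0 members under the other settings tried as well. Of all genes it called 1.56% higher with RLE factors, 3.14% with upper-quartile factors, 1.48% with no filter, 1.86% with a minimum count of 30 and 0.0151% at an adjusted p of 0.01. Leaving out diseased replicate 1, 2 or 3 it called 0.29%, 0.267% and 0.0149% of all genes higher, and leaving out un-diseased replicate 1, 2 or 3 it called 2.63%, 0.0223% and 0.103%.

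**Figure D2:**
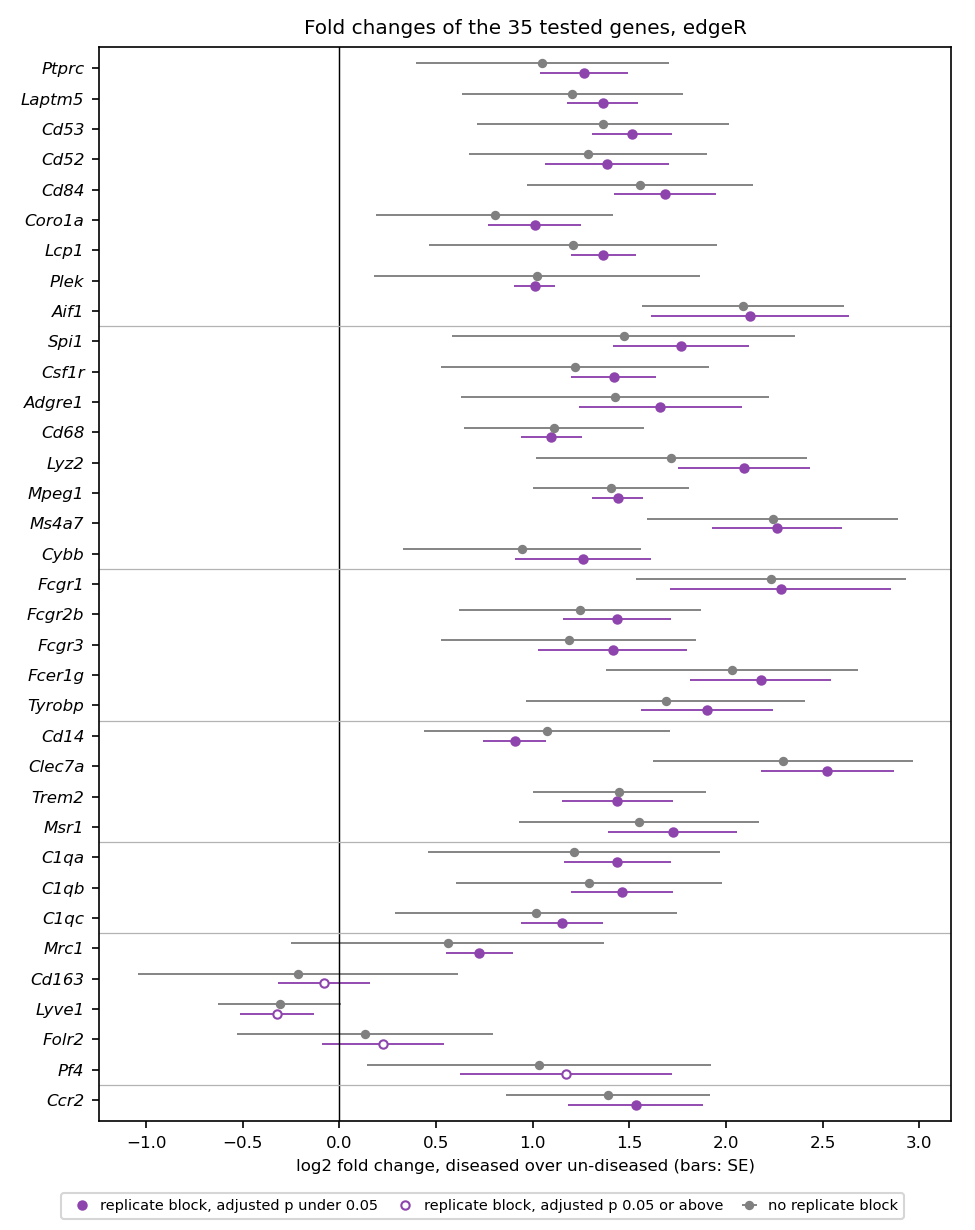
log2 fold change of diseased over un-diseased for the 35 tested genes with its SE, by edgeR without (grey) and with (purple) the replicate block; filled purple points passed an adjusted p of 0.05. The block narrows most bars, and the 4 open points are Cd163, Lyve1, Folr2 and Pf4.

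Genes of macrophage identity and phagocyte function all rose with the block (8 of 8), and their fold changes without it ran from 0.94 to 2.24. Lyz2 (gene 17105, GRCm38 chromosome 10, 117277541 to 117282272), which encodes lysozyme, had 166.2, 182.37 and 83.53 CPM in diseased samples (replicates 1, 2 and 3, the order kept below) against 41.75, 81.9 and 7.75 in un-diseased samples. The lowest diseased sample was just above the highest un-diseased one, and the log2 fold change was 1.72 (SE 0.70, adjusted p = 0.165 by edgeR; 2.09, SE 0.34, adjusted p = 0.00574 with the block). Lyz2 has a near-identical neighbour, Lyz1, whose CPM was 8.51 ± 3.03 against 3.36 ± 2.99 (SD, n = 3 each). Counts of both genes were whole in every sample, so the estimate shows no fractional sharing of reads between them. Whether reads of either gene were assigned to the other was not tested. Mpeg1, which encodes the pore-forming protein perforin-2 of phagocytes, had 33.55, 49.75 and 22.39 CPM against 14.91, 18.35 and 6.57. All diseased samples were above all un-diseased ones, and it had the smallest adjusted p of all members with the block (0.00115 by edgeR; log2 fold change 1.44, SE 0.13).

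Csf1r, the receptor for CSF1 and IL-34 on which macrophages depend, had 21.96, 35.3 and 10.47 CPM in diseased and 8.34, 18.6 and 2.11 in un-diseased samples. Its groups overlapped, as un-diseased replicate 2 exceeded diseased replicate 3, and its adjusted p was 0.282 by edgeR without and 0.00498 with the block. Exons of Csf1r share 873 of 4885 bases with Hmgxb3 on the other strand, and the labels do not say whether strand was used in counting. Adgre1, which encodes F4/80, had 152, 131 and 61 counts in diseased and 47, 71 and 2 in un-diseased samples, so the low library rests on 2 counts. Spi1 had 4.26, 10.02 and 2.64 CPM against 0.99, 4.88 and 0.248, with un-diseased replicate 2 above diseased replicates 1 and 3. Cd68, a lysosomal glycoprotein of phagocytes, went from 4.42 ± 2.11 to 9.57 ± 4.94 CPM (SD, n = 3 each), and Cybb, the membrane subunit of the phagocyte oxidase, from 9.71 ± 9.18 to 18.7 ± 4.25. Ms4a7, a membrane protein of macrophages, had 52, 56 and 17 counts in diseased and 13, 10 and 2 in un-diseased samples and showed no overlap (log2 fold change 2.24, SE 0.65).

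All 9 genes of the leukocyte surface and cytoskeleton list rose with the block. Ptprc, which encodes the common leukocyte antigen CD45, had 17.85, 30.07 and 10.04 CPM in diseased and 4.85, 19.54 and 3.66 in un-diseased samples. The ordering by replicate is the same in both groups, with replicate 2 highest and replicate 3 lowest. Plek, or pleckstrin, a substrate of protein kinase C in platelets and leukocytes, had the highest CPM of these 9, with 34.68, 140.34 and 22.45 against 19.65, 67.5 and 9.91. Its within-pair differences of 0.82, 1.05 and 1.17 were even, and the block took its SE from 0.84 to 0.11. Lcp1, the actin-bundling protein L-plastin, went from 16.7 ± 16.4 to 38.5 ± 28.5 CPM, and Laptm5, a lysosomal membrane protein of blood cells, from 10.1 ± 8.13 to 23.2 ± 10.9 (SD, n = 3 each). Exons of Lcp1 and Plek share 311 and 166 bases, respectively, with genes on the other strand. Aif1, the calcium-binding protein Iba1, differed from the rest of these genes in that its diseased samples were close together, at 1.27, 0.996 and 1.03 CPM, against 0.261, 0.438 and 0.062. It rests on 26, 16 and 19 counts against 5, 7 and 1. Only its diseased samples reached the filter's minimum count of 10. Its fold change, lack of overlap and calls therefore carry that selection. Cd53, Cd52, Cd84 and Coro1a had log2 fold changes of 1.37, 1.29, 1.56 and 0.80 without the block, and the groups of each overlapped.

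The Fc receptors and their adaptors rose together with the block (5 of 5), with a median log2 fold change of 1.69 without it. Fcgr1 (gene 14129, chromosome 3, 96282909 to 96293969), the high-affinity IgG receptor, had 30, 38 and 32 counts in diseased and 10, 10 and 0 in un-diseased samples. The 0 in un-diseased replicate 3 allows up to 0.186 CPM, below the 0.521 and 0.626 CPM of the other two. Fcer1g, the adaptor chain shared by activating Fc receptors, had 3.13, 4.48 and 1.94 CPM against 0.521, 1.63 and 0.186, without overlap. Tyrobp, the adaptor of TREM2 and related receptors, had 5.18, 7.28 and 2.59 against 0.99, 3.38 and 0.31, and here un-diseased replicate 2 exceeded diseased replicate 3. For Fcer1g the log2 fold change was 2.03 (SE 0.65, adjusted p = 0.113 by edgeR; 2.18, SE 0.37, adjusted p = 0.00628 with the block). The inhibitory receptor Fcgr2b went from 4.35 ± 3.66 to 10.3 ± 4.19 CPM and the activating Fcgr3 from 1.72 ± 1.71 to 3.89 ± 1.17 (SD, n = 3 each). Counts of this receptor pair were not whole, so the authors' estimate shared reads between similar sequences, and both are uncertain to that extent.

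Among the 4 receptors for microbial and lipid ligands, all rose with the block, and Clec7a had the largest fold change of all members. Clec7a (gene 56644, chromosome 6, 129461591 to 129472785), which encodes dectin-1, the receptor for fungal beta-glucan, had 8.46, 12.83 and 5.94 CPM in diseased and 0.782, 4.2 and 0.62 in un-diseased samples. Every diseased sample was above every un-diseased one, and the ratio of group means was 4.86. Its log2 fold change was 2.29 (SE 0.67, adjusted p = 0.0948 by edgeR; 2.52, SE 0.34, adjusted p = 0.00321 with the block). Msr1, a scavenger receptor for modified lipoproteins, had 4.6, 9.15 and 5.34 CPM against 1.46, 4.45 and 0.62. Trem2, a lipid-sensing receptor of macrophages and osteoclast precursors, had 4.45, 4.73 and 1.83 against 1.04, 2 and 0.991, so that un-diseased replicate 2 exceeded diseased replicate 3. Cd14, the lipopolysaccharide co-receptor, which stromal cells can express as well, had 20.15, 95.33 and 27.46 CPM against 11.67, 36.82 and 19.33. It was one of 3 members whose lowest sample was not un-diseased replicate 3, and its pair 3 difference of 0.50 was its smallest, where most members had their largest.

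The 3 chains of C1q, the recognition part of the first complement component, lie next to each other on chromosome 4 and rose together with the block. C1qa had 15.21, 20.73 and 5.94 CPM against 5.42, 11.77 and 0.868, C1qb had 11.84, 15.13 and 4.91 against 4.48, 7.76 and 0.744, and C1qc had 13.94, 16.87 and 4.15 against 6.41, 9.83 and 0.991. The samples stood in the same order for all 3 chains, except that un-diseased replicate 1 and diseased replicate 3 changed places for C1qc. Their log2 fold changes without the block were 1.21, 1.29 and 1.02, with adjusted p of 0.319, 0.259 and 0.382 by edgeR, and 1.44, 1.46 and 1.15 with the block, with adjusted p of 0.00987, 0.00781 and 0.00851.

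Of the monocyte receptors, Ccr2, which responds to CCL2, had 4.45, 4.92 and 2.91 CPM in diseased and 0.782, 3.07 and 0.868 in un-diseased samples. Only un-diseased replicate 2 reached into the diseased range, and the gene rose with the block (log2 fold change 1.53, SE 0.35, adjusted p = 0.0181 by edgeR). Cx3cr1, the fractalkine receptor, was too low to test, at 16, 17 and 6 counts against 8, 7 and 3.

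Of the genes of tissue-resident macrophages, 1 of 5 rose with the block, 0 fell, and their median log2 fold change without it was 0.13. Mrc1, the mannose receptor CD206, had 15.21, 27.4 and 4.8 CPM in diseased and 7.97, 21.98 and 2.17 in un-diseased samples. The groups overlapped, and of the genes that rose with the block it had the smallest log2 fold change, 0.72 (SE 0.17, adjusted p = 0.0221 by edgeR with the block; 0.56, SE 0.81, adjusted p = 0.670 without). Without pair 1 or without pair 3 this call was lost. Cd163, the haemoglobin-haptoglobin scavenger receptor, had 4.94, 9.34 and 1.67 CPM against 6.15, 11.4 and 0.868. It was lower in the diseased sample in pairs 1 and 2 and higher in pair 3 (log2 fold change -0.21, SE 0.83, adjusted p = 0.882 by edgeR; -0.08, SE 0.24, adjusted p = 0.825 with the block). Lyve1, a hyaluronan receptor, had 3.03, 4.98 and 2.59 against 4.17, 5.64 and 3.28 and was the only tested member lower in the diseased sample in every pair (log2 fold change -0.31, SE 0.32, adjusted p = 0.542 by edgeR; -0.32, SE 0.19, adjusted p = 0.242 with the block). Lymphatic vessels also express Lyve1, and the lymphatic regulator Prox1, looked up after these values were seen, had 1.22, 1.74 and 1.94 against 1.36, 1.88 and 1.49 CPM; the part of these vessels in Lyve1 was not tested. Folr2, the folate receptor beta, had 39, 36 and 12 counts against 24, 43 and 7, and Pf4, a chemokine of platelets and resident macrophages, 18, 20 and 6 against 6, 14 and 0, the 0 allowing up to 0.186 CPM. Pf4 was higher in the diseased sample of every pair and had a log2 fold change of 1.03 (SE 0.89, adjusted p = 0.463 by edgeR; 1.17, SE 0.55, adjusted p = 0.151 with the block), as large as that of several members that rose with the block.

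**Figure D3:**
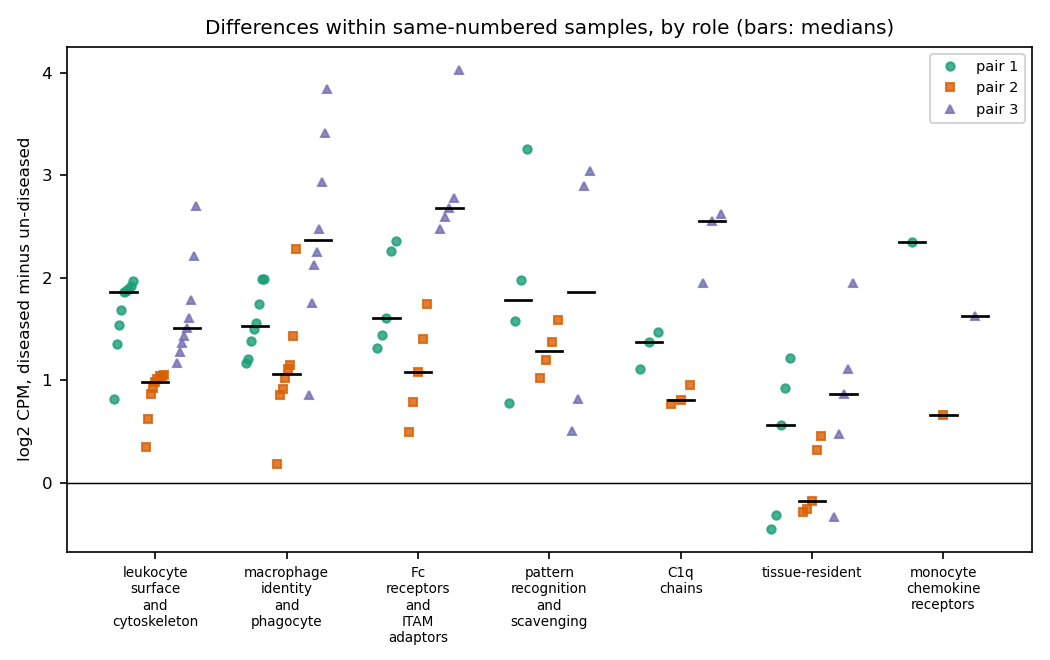
Difference of log2 CPM (prior count 2) between the diseased and un-diseased sample of each number, one point per tested gene, grouped by role, with the median as a bar. In the tissue-resident group the medians were 0.57, -0.17 and 0.86, and in the macrophage identity group 1.53, 1.06 and 2.36, for pairs 1, 2 and 3.

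The resident genes were therefore also expressed relative to Csf1r within each library, as counts per 100 Csf1r counts, a ratio that does not depend on library scaling. This ratio was chosen after the values were seen, and no test was applied to it. Csf1r itself was higher in the diseased sample of every pair, by log2 1.39, 0.92 and 2.25. A gene of unchanged level would therefore also have a lower ratio in the diseased sample of each pair. The share of all genes with such ratios was not computed, for this or the later denominators. Per 100 Csf1r counts, Cd163 had 22.5, 26.5 and 16 counts in diseased against 73.8, 61.3 and 41.2 in un-diseased samples. Folr2 had 8.69, 6.35 and 6.19 against 15, 14.5 and 20.6, Lyve1 had 13.8, 14.1 and 24.7 against 50, 30.3 and 155.9, and Mrc1 had 69.3, 77.6 and 45.9 against 95.6, 118.2 and 102.9. For these 4 genes every diseased library was below every un-diseased one, and of the 35 ratios to Csf1r no other gene's was lower without overlap. Pf4 overlapped, at 4.01, 3.53 and 3.09 against 3.75, 4.71 and 0. The summed counts of the 5 resident genes were 9.83, 13.8 and 7.06 per 100 counts of the 8 identity genes in diseased and 24.9, 27.4 and 30.8 in un-diseased samples, and 26.5, 31.4 and 17.1 against 52.3, 57.8 and 47.6 with Lyz2 left out of the 8. By gene, log2 CPM was also set against the mean of the identity genes. Here 6 of 35 members were lower without overlap, the 5 resident genes and Cd68, and 3 were higher. Lower in every pair were 11 of the 35, so this was not confined to the 5 resident genes.

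Against C1qa in place of Csf1r, the same 4 genes were lower without overlap; Cd163 had 32.5, 45 and 28.2 counts per 100 of C1qa against 113.5, 96.8 and 100. Against Mpeg1, Lyve1, Folr2 and the monocyte gene Cx3cr1 were lower without overlap, whereas Cd163 (14.7, 18.8 and 7.47 against 41.3, 62.1 and 13.2) and Mrc1 (45.3, 55.1 and 21.4 against 53.5, 119.8 and 33) overlapped through un-diseased replicate 3. That library has 34 counts of Csf1r, 14 of C1qa and 106 of Mpeg1, so its ratios to Csf1r and C1qa rest on few counts. In the other direction, 6 genes were higher relative to Csf1r without overlap: Lyz2, Ms4a7, Fcgr1, Fcer1g, Tyrobp and Clec7a. Fcer1g had 14.3, 12.7 and 18.6 counts per 100 of Csf1r against 6.25, 8.75 and 8.82, and Clec7a had 38.5, 36.3 and 56.7 against 9.38, 22.6 and 29.4. Relative to C1qa, this held for Ms4a7 and Fcgr1 only, and relative to Mpeg1 for Fcgr1 and Clec7a only.

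**Figure D4:**
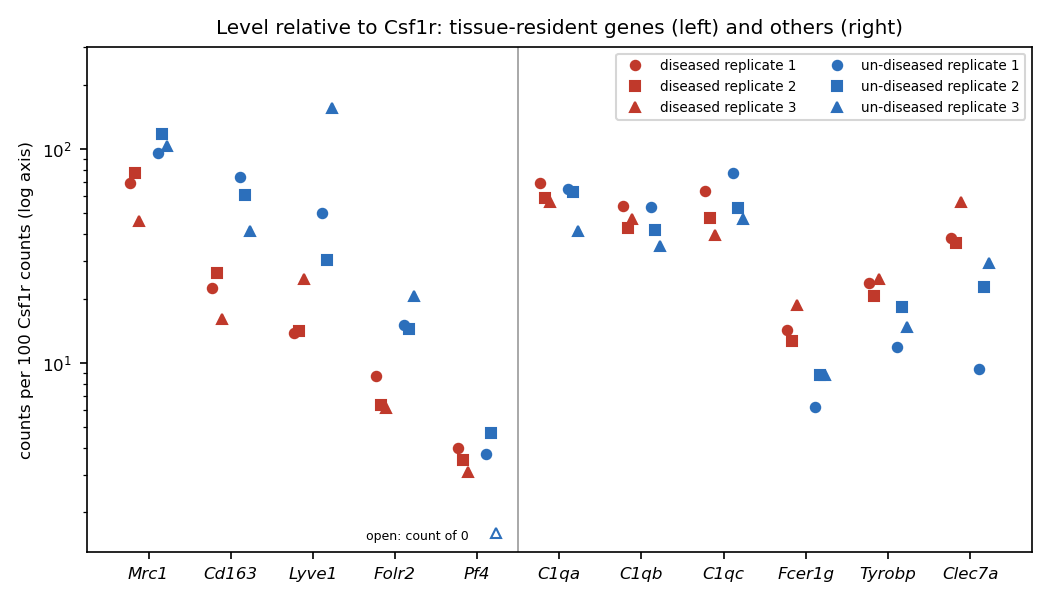
Counts per 100 Csf1r counts in each library (log axis) for the 5 tissue-resident genes and for 6 other members. For Mrc1, Cd163, Lyve1 and Folr2 the red (diseased) symbols all lie below the blue ones, for Pf4 and the C1q chains they overlap, and for Fcer1g, Tyrobp and Clec7a they lie above.

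Other genes of the same pathways were read from lists of 4 to 11 genes. By edgeR without the block none of the genes described from them passed; DESeq2 without the block called Plcg2 and Lyn higher and Csf1, Axl and Ccl8 lower, where it called 6.65% of all genes lower. The counts below are by edgeR, and the blocked counts stand against the 10.5% higher and 13.3% lower given above. Of 10 tested kinases and effectors downstream of ITAM adaptors 7 rose and 0 fell with the block, among them Inpp5d (log2 fold change 1.49, SE 0.20), Plcg2 (1.72, SE 0.26) and Ptpn6 (1.43, SE 0.23). Among partners of the phagocyte oxidase, Ncf1 (log2 fold change 1.37, SE 0.33), Ncf4 (1.68, SE 0.33) and Rac2 (0.92, SE 0.27) rose with the block, while Cyba, which many cell types express, had 29.2 ± 1.26 against 31 ± 1 CPM (SD, n = 3 each). Itgb2, Itgal and Itgam of the 4 beta2 integrin genes rose. Among 10 tested myeloid transcription factors Ikzf1 rose and Irf5 and Klf4 fell with the block. Of 5 further tested resident macrophage genes Stab1 rose (1.00, SE 0.17) and Axl fell (-0.47, SE 0.13). Mean CPM was 767 in diseased against 1066 in un-diseased samples for Axl and 635 against 934 for Klf4. Both were far above Csf1r, at 22.6 against 9.68, and which cells gave this RNA was not tested.

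Several ligands that feed or attract macrophages were lower in diseased samples. Csf1, the main growth factor acting on Csf1r, had 231.4, 484.85 and 314.03 CPM in diseased and 489.29, 1044.01 and 793.06 in un-diseased samples. The groups did not overlap, and Csf1 fell with the block (log2 fold change -1.17, SE 0.12, adjusted p = 0.00167 by edgeR; adjusted p = 0.0949 without it). Il34, the other ligand of Csf1r, had 11.84, 11.21 and 11.06 against 6.72, 8.89 and 7.68 CPM and rose with the block (0.56, SE 0.15, adjusted p = 0.0287 by edgeR), without overlap. Of the 6 genes of CSF ligands and receptor chains Il34 and Csf2ra rose and Csf1, Csf2, Csf2rb and Csf3 fell with the block. Among 6 tested macrophage-attracting chemokines 0 rose and 3 fell with the block, Ccl2, Ccl7 and Ccl8. Ccl2, the ligand of Ccr2, had 179.51, 946.11 and 629.63 CPM against 678.37, 1853.23 and 1782.3.

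Markers of other cells moved in part with these genes, and their part in the result was not tested. Neutrophils share Ptprc, Lcp1, Coro1a, Fcer1g, Tyrobp, Lyz2 and Clec7a with macrophages. The 12 neutrophil genes summed to 112.2, 182.6 and 60.6 CPM in diseased against 34.9, 225.2 and 8.86 in un-diseased samples, so the sum was higher in the un-diseased sample of pair 2. Of the 10 tested, 0 passed by edgeR or DESeq2 without the block, and Csf3r, Cxcr2 and S100a9 rose with it. Their log2 fold changes with the block were 2.76 (SE 0.36), 2.14 (SE 0.47) and 1.27 (SE 0.38). The largest among the tested members with the block was 2.52, for Clec7a. Without the block, 7 of the 10 neutrophil genes had a positive log2 fold change. Of 8 osteoclast genes 4 were tested and Mmp9 rose with the block; the list summed to 734 to 1119 CPM in diseased and 784 to 1398 in un-diseased samples, nearly all of it Ctsk, which fibroblasts express. Of 5 tested mast cell genes 0 rose and 4 fell with the block, Cpa3, Mcpt4, Tpsb2 and Cma1, and the list summed to 3.08 to 17.7 against 4.59 to 37.5 CPM. Of 7 dendritic cell genes 2 were tested and Zbtb46 fell with the block (and by DESeq2 without it), and of 7 tested T and NK cell genes Cd3e fell. The T and NK list summed to 4.3 to 13.5 against 5.21 to 12.8 CPM, and the dendritic list to 14.8 to 32.1 against 42.9 to 46.8, nearly all of it Zbtb46.

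The 5 B cell genes summed to at most 0.56 against 0.682 CPM and the 3 erythroid genes in the table to at most 0.56 against 0.31, and none of them passed the filter. Of 6 tested endothelial genes Erg rose by edgeR without the block, Erg and Tie1 rose and Tek fell with it (Tek also by DESeq2 without it), and the list summed to 47.4 to 64.8 against 57.6 to 83.2 CPM. Among the 10 fibroblast genes 0 passed by edgeR without the block and 2 rose with it, Thy1 and Pdgfrb. DESeq2 without the block called Thy1, Pdgfrb, Col1a1 and Col3a1 higher and Dcn lower, and with the block it called 6 of the 10 higher. None of the genes of these lists was at a count of 0 in all 6 samples.

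**Figure D5:**
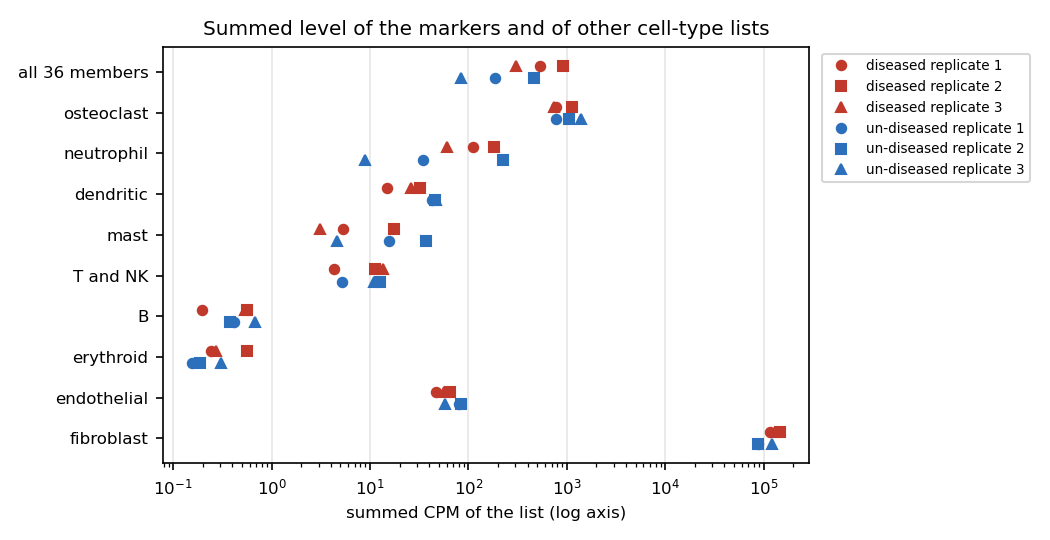
Summed CPM (log axis) of the 36 genes and of the marker lists of other cell types in each sample. The 36 genes sum to 306.6 to 908.9 CPM in diseased and 85 to 464.7 in un-diseased samples, the neutrophil list shows a similar order of samples apart from un-diseased replicate 2, and the fibroblast list is at 86771 CPM or more in all 6.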

How the data were processed

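Bulk RNA of 3 diseased and 3 un-diseased samples was read on a BGISEQ-500, per the labels' protocols. The authors deposited estimated counts per gene; HISAT2 2.0.4, RSEM 1.3.1, DESeq2 1.4.5 and the build GRCm38 are named, per the submitters' processing notes, without role or order. The authors' deposited table gives for each gene a log2 ratio (un-diseased divided by diseased) with its p-value and q-value. Values were rounded before testing, since 9.61% had a fractional part. Genes were kept with filterByExpr at a minimum count of 10 and tested with edgeR 4.0.16 (R 4.3.3), TMM scaling, the quasi-likelihood test and Benjamini-Hochberg adjustment over all 13264 genes at 0.05, without a block. SEs were taken from the fold change and its F statistic. DESeq2 1.42.0, limma-voom (limma 3.58.1), other scalings and filters, a replicate block and left-out samples were alternatives. The steps were checked on simulated data. That simulation held no replicate effect and changed only genes with high counts. It therefore cannot speak to the gap between the fits with and without the block.

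Deviations from the group means correlated between same-numbered samples, over 13264 genes, at 0.487, 0.578 and 0.276 for replicates 1, 2 and 3, and every sample's highest such correlation was with its namesake number; the pairing comes from the labels' replicate numbers and these values. No pair of samples looked like one library deposited more than once (chi-square per gene 25.7 to 62.1 within groups). Gene positions and promoters are from RefSeq GRCm38.p6, which matched 36 of 36 members, and exon lengths from GENCODE. The members and lists were chosen with earlier results of these data known. All members are named; of each other list at most 3 genes past the threshold are named, by smallest adjusted p without the block and otherwise with it, plus those that a count of 5 or fewer needs. Some results of these lists are not reported here.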

Additional observations from a re-analysis of the deposited data

How the results depend on the processing

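The count of members called higher, 0 by edgeR without the block, stayed 0 with RLE or upper-quartile scaling, no filter, a minimum count of 30, limma-voom, a threshold of 0.01 and with each sample left out (0 to 0). It was 7 with DESeq2, 31 with the replicate block, 31 with the block and upper-quartile factors, 27 with the block in DESeq2, and 22, 31 and 22 with the block without replicate 1, 2 and 3; the block removes the spread that same-numbered samples share. The median log2 fold change, 1.25, lay between 0.81 and 2.15 with one sample left out, the lowest when diseased replicate 2 and the highest when un-diseased replicate 2 was dropped, and was 1.85 with the block without replicate 2, the pair with the smallest differences. The 4 genes Plek, Mrc1, Folr2 and Cd163 changed sign, each at an adjusted p above 0.05, and the cause was not tested. With one sample left out, Plek lay between -0.17 and 2.13, Mrc1 between -0.088 and 1.61, Folr2 between -0.30 and 0.89 and Cd163 between -0.88 and 0.56. Cd163 was at 0.049 with limma-voom; with the block it was at 0.046 without pair 1 and 0.11 without pair 2, and Folr2 was at -0.022 without pair 1. Depth limits Aif1, Adgre1, Ms4a7, Fcgr1, Fcer1g, Pf4 and Cx3cr1, whose lowest library, un-diseased replicate 3, has 0 to 3 counts.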

Other observations

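A further Fc receptor gene that was on none of the lists, Fcgr4, was looked up after the values of its relatives were seen. It encodes a mouse receptor for IgG2 antibodies found on monocytes, macrophages and neutrophils, and had 22, 18 and 11 counts in diseased and 1, 3 and 2 in un-diseased replicates 1, 2 and 3, without overlap. By edgeR it rose without the block (log2 fold change 2.91, SE 0.54, adjusted p = 0.0366) and with it (2.92, SE 0.55, adjusted p = 0.00944). Only its diseased samples reached the filter's minimum count, so it was kept through the group in which it was higher. Its fold change, lack of overlap and calls carry that selection and the late choice of the gene. They therefore cannot count as separate evidence that the Fc receptor genes rose. The ratio of the summed counts of Fcgr4, scaled by library, was 7.92 with an exact 95% interval of 3.4 to 22.6 that covers counting error only.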
